A study of Rattus norvegicus with 9 samples.

Results

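These results describe neonatal rat ventricular myocytes (NRVMs), primary heart muscle cells from the ventricles of newborn rats, that had received vehicle only. The 3 vehicle samples are those whose titles name vehicle, out of 9 samples in the series. All 9 hold the same kind of cell and were treated for 48 hours: 3 with vehicle, 3 with 50 µM of the alpha-adrenergic agonist phenylephrine and 3 with 10 nM of the growth factor IGF1. Libraries of total RNA came from a NuGEN Ovation kit and were read on an Illumina NovaSeq6000. The labels give no allele or transgene, and they do not state strain, sex, age in days, what the vehicle was, how many animals were pooled, or whether the 3 samples were separate cultures. The treated samples are not analysed here, and with 1 group there was nothing to test: levels are given for each sample, and each ± is the SD over the 3 samples (n = 3).

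A newborn rat ventricle is in transition. Before birth its myocytes divide, rely largely on glucose and lactate, and build sarcomeres partly from fetal or slow skeletal isoforms of the contractile proteins. After birth thyroid hormone rises, the fast myosin Myh6 replaces Myh7, cardiac troponin I (Tnni3) replaces the slow skeletal form (Tnni1), and fatty acid oxidation takes over as the source of energy. Myocytes isolated at this stage and kept in culture are a common model of cardiac growth, and such cultures usually carry some fibroblasts and other heart cells.

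Each sample had between 38659775 and 48505265 reads counted to genes, so 1 CPM, the unit of a gene's reads scaled to the counted reads of its sample (counts per 1e+06), rested on 38.7 to 48.5 reads. A count of 0 allows a level of up to 0.0653, 0.0776 and 0.0618 CPM in replicates 1, 2 and 3 (3 reads, counting error only). The table names genes by symbol only and gives no lengths, and long transcripts collect more reads than short ones. All levels here are therefore shares of reads, and an order among genes is an order by reads, not by molecules. Several genes that nearly all cells use abundantly had few or no reads. Among them, chosen after their values were seen, were the non-muscle myosin light chain Myl6 at 0 reads in all 3 samples, the ribosomal proteins Rps19 at 0.851 ± 0.31 CPM and Rpl37a at 0.521 ± 0.15 CPM, the chaperone Hspa8 at 12.3 ± 0.625 CPM, and Col1a2, the partner chain of the abundant collagen Col1a1, at 0.193 ± 0.0807 CPM. Of 77 cytosolic ribosomal protein genes, 7 lay under 50 CPM while the median was 416 CPM. A low value in this table is thus a low number of assigned reads and does not show that a gene is silent.

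The label of heart muscle held against its markers. Myh7 and Myh6 (myosin heavy chains), Tnnt2 (cardiac troponin T), Actc1 (cardiac actin) and Atp2a2 (the calcium pump of the sarcoplasmic reticulum) summed to 44628, 47309 and 46018 CPM in replicates 1, 2 and 3, or 4.6% of all reads. All 5 stood among the 52 genes with the most reads.

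One gene led the ranking by a wide margin. Myh7, the beta myosin heavy chain of the fetal and slow muscle type, took 22315, 24114 and 22898 CPM, 2.31% of all reads, and the 3 samples lay close together. The gene in second place, Tnnt2, which ties the thin filament to its calcium switch, had 7669.6, 8124 and 8571 CPM. Atp2a2 followed at 6933, 7037 and 6785 CPM, and Atp5b, the catalytic beta subunit of mitochondrial ATP synthase, at 6222, 6534 and 6617 CPM. Actc1, at 6327, 6563 and 6376 CPM, overlapped Atp5b, so the order of that pair does not hold sample by sample. In sixth place came the first gene that is not a muscle or energy gene, fibronectin (Fn1), a matrix protein, at 5120.0, 4977 and 4634 CPM. Places 7 to 10 went to the translation factor Eef1a1 at 4396 ± 56.8 CPM, the tropomyosin Tpm1 at 4334 ± 150.2, phospholamban (Pln), the brake on the calcium pump, at 4085 ± 51.1, and the cardiac myosin binding protein Mybpc3 at 4003 ± 138. Tpm1 and Eef1a1 overlapped each other between samples, as did Pln and Mybpc3.

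Ranks 11 to 25 mixed contractile, matrix and housekeeping genes. In order they were Ankrd1, a stretch-responsive ankyrin protein of the sarcomere and nucleus, at 3879 ± 41.8 CPM, Eef2, Col1a1, the matrix glycoprotein Sparc, the Z-disc crosslinker Actn2, the ATP synthase alpha subunit Atp5a1, the M-band protein Myom2, Pde4dip (myomegalin), cardiac troponin C (Tnnc1), the glycolytic enzyme Aldoa, Ahnak, the spectrin Sptbn1, ferritin heavy chain (Fth1), the IGF2 receptor Igf2r and the gap junction protein Gja1 at 2294 ± 35.9 CPM. Of these 25 genes, 9 belong to the sarcomere or Z-disc, 3 to energy metabolism, 3 to the matrix and 2 to calcium handling, and 8 to none of these classes. Among the first 50 genes the same classes numbered 14, 7, 5 and 4, with 20 in none, and held 6.80%, 1.95%, 1.53% and 1.43% of all reads against 4.44% for the remainder.

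The rest of the transcriptome was spread widely. The 10 genes with the most reads held 7.28% ± 0.16 of all reads, the first 100 held 21.8% ± 0.21 and the first 1000 held 55.7% ± 0.24, and 752 genes were needed to reach 50%. At 1 CPM or more in all 3 samples stood 10603 of 17327 rows, with a median of 35.7 CPM. By mean level, 83 rows reached 1000 CPM, 2190 lay from 100 to under 1000 CPM, 6152 from 10 to under 100 CPM and 2333 from 1 to under 10 CPM. Below that, 1701 rows lay from 0.1 to under 1 CPM, 1925 lower but above 0, and 2943 had no read in any vehicle sample.

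**Figure D1:**
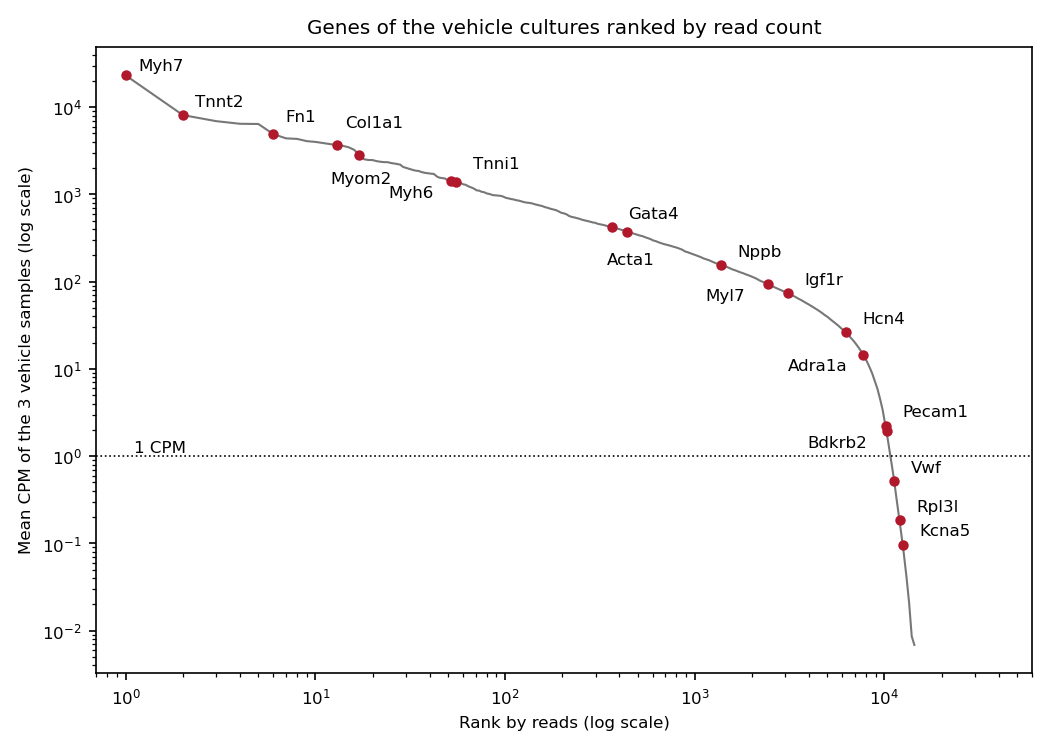
Mean level in the 3 vehicle samples (CPM, log axis) of every gene with a read, against its rank by reads (log axis), with named genes marked. Myh7 stands alone at the left at 23109 CPM, the myocyte genes fill the first ranks, and Pecam1, Vwf, Rpl3l and Kcna5 lie at the far right at or below 2.23 CPM. The dotted line marks 1 CPM.

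Among the myosin heavy chains, the motors of the thick filament, Myh7 held 94.2%, 94.3% and 94.3% of the reads of the Myh7 and Myh6 pair in replicates 1, 2 and 3. Myh6, the fast alpha chain of the adult rat ventricle, had 1384, 1470.4 and 1387 CPM, which put it at rank 52 of all genes but 16.3 ± 0.20 times below Myh7. The 2 genes are near copies, so reads that fit both may have been split or dropped, and how much was not tested. Myh7b, a related slow chain, had 164 ± 2.38 CPM. The skeletal chains all lay under 5 CPM. Embryonic Myh3 had 3.44 ± 1.07 CPM, perinatal Myh8 1.81 ± 0.176, and the adult fast chains Myh2, Myh1 and Myh4 had 3.07 ± 0.276, 1.65 ± 0.0999 and 0.0559 ± 0.0428 CPM. Of the chains of other cells, Myh10, a non-muscle motor also used by immature myocytes, had 339.6 ± 9.39 CPM, Myh14 220.1 ± 9.93, smooth muscle Myh11 155 ± 4.09, and non-muscle Myh9 4.7 ± 0.771 CPM. As with Myl6, few assigned reads for Myh9 do not show a low level of the gene.

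The myosin light chains were of the ventricular kind. The ventricular essential chain Myl3 had 2151, 2229 and 2321 CPM, the most reads of any light chain. The ventricular regulatory chain Myl2 had 1239, 1439 and 1547 CPM, with replicate 1 the lowest and more spread than for most abundant genes. Atrial Myl7 had 99.5, 97.7 and 84.3 CPM and Myl4, the essential chain of the atrium and of the embryonic ventricle, 84.6, 81.1 and 71.2 CPM. These atrial chains overlapped each other between samples, and both were lowest in replicate 3. Myl2 made up 93.7% ± 1.13 of its pair with Myl7, and Myl3 96.6% ± 0.412 of its pair with Myl4. Skeletal Mylpf and Myl1 had 3.4 ± 0.232 and 0.292 ± 0.125 CPM. The light chains of smooth muscle and non-muscle cells had more reads than the atrial ones, with 814 ± 12.2 CPM for Myl12a, 505 ± 8.43 for Myl9 and 167 ± 3.39 for Myl12b, while Myl6 and Myl6b had none.

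In the thin filament, troponin I was the subunit whose reads were split between forms. The adult cardiac form Tnni3 had 1779, 1857 and 1970.3 CPM and the fetal slow skeletal form Tnni1 1371, 1395 and 1439.8 CPM. Tnni3 was the higher in each sample, at 56.5%, 57.1% and 57.8% of the reads of the pair. The fast skeletal form Tnni2 had 0.516 ± 0.0535 CPM. For troponin T and C, by contrast, 1 gene held nearly everything. Tnnt2 made up 99.97% of troponin T reads, with 1.86 ± 0.194 CPM for slow skeletal Tnnt1 and 0.685 ± 0.275 CPM for fast skeletal Tnnt3, and Tnnc1 at 2484 ± 37.0 CPM stood against 0.0827 ± 0.11 CPM for fast skeletal Tnnc2. Tpm1 made up 84.6% ± 0.82 of tropomyosin reads, ahead of Tpm2 at 402 ± 15.4, Tpm4 at 252 ± 8.08 and Tpm3 at 133 ± 3.41 CPM.

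Among the actins, cardiac Actc1 made up 94.5% ± 0.127 of the reads of its pair with skeletal Acta1, which is the fetal form of the rodent heart and rises again in cardiac growth. Acta1 had 360.0, 389.7 and 378 CPM, rank 441. Smooth muscle Acta2, which immature myocytes share with smooth muscle cells and activated fibroblasts, had more reads than Acta1, at 892, 852 and 834 CPM. The cytoplasmic actins Actb and Actg1 had 971 ± 45.5 and 235 ± 10.1 CPM, and enteric Actg2 76.0 ± 4.1. Since Actc1 and Acta1 code for nearly the same protein, reads that fit both may have been split or dropped here too.

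The 250 bases upstream of the annotated start of Actc1 and Acta1 are shown because these genes code for nearly the same protein and lay 17.1 ± 0.42 times apart in reads. The windows are from RefSeq, build GRCr8, which is not the build of the count table, and both are written 5′ to 3′ on the strand of the gene, the minus strand. They are chr3:121271828-121272077 for Actc1 and chr19:68784195-68784444 for Acta1. Capitals mark matches, on either strand, to the CArG box, the site that serum response factor is known to bind, and to the letters TATAAA, a common promoter element, with all other bases in lower case.
Actc1: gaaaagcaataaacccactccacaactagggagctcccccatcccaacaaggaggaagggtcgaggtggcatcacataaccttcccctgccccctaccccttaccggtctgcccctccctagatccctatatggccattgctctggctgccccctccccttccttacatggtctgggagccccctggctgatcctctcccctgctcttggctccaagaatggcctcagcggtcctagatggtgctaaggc
Acta1: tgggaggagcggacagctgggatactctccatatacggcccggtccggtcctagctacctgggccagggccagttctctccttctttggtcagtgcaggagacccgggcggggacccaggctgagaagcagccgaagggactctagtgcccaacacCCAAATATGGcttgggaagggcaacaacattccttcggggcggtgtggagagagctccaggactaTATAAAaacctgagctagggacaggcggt
Acta1 holds a CArG box 94 to 85 bases before its start, in a word that reads as a match on both strands, and 1 TATAAA. The window of Actc1 holds neither, which says only that these letters are not in this stretch. Of 33469 windows of this length in the RefSeq table, 1.5% hold a CArG box and 12.9% a TATAAA. A match is a description of letters and not a measured site.

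Beyond the filaments, the scaffold genes with a row were led by the cardiac ones. Myom3, Neb and Lmod3 had no row, so their relatives could not be set against them. Mybpc3 made up 99.2% ± 0.02 of the reads of its family, against 21.1 ± 1.71 CPM for fast skeletal Mybpc2 and 0.104 ± 0.0419 CPM for slow skeletal Mybpc1. Mybph and Mybphl had 6.29 ± 0.209 and 4.51 ± 1.04 CPM. Actn2 had 3467 ± 31.7 CPM and the fast skeletal alpha-actinin Actn3 0.397 ± 0.142, with the non-muscle forms Actn4 and Actn1 at 801 ± 24.8 and 295 ± 10.7 CPM. At the M-band, Myom2 had 80.1% ± 0.0801 of the reads of its pair with Myom1, the form common to all striated muscle. Desmin (Des), the intermediate filament of muscle, and vimentin (Vim), that of mesenchymal cells, were of the same order, at 1732, 1743 and 1743 CPM and 1426, 1375 and 1386 CPM. Their ranges did not overlap.

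Of 22 Z-disc and costamere genes with a row, 21 reached 1 CPM in all 3 samples, and together they took 2.0% of all reads. Ankrd1 made up 81.6% ± 0.35 of the LIM and muscle ankyrin family, ahead of the muscle LIM protein Csrp3 at 416 ± 17.9 CPM and smooth muscle Csrp1 at 385 ± 7.51. Csrp2, Ankrd23 and Ankrd2 had 70.5 ± 1.18, 1.63 ± 0.21 and 0.0593 ± 0.0205 CPM. The small chaperone Cryab was among the highest of the Z-disc list, at 1787 ± 63.4 CPM, while Myoz1, the fast skeletal calsarcin, had 1.43 ± 0.254 CPM and myotilin (Myot) no read. Nrap, a protein of growing myofibrils, had 713 ± 13.0 CPM, the cardiac nebulette Nebl 403 ± 28.1, and the filament caps Tmod1, Tmod3, Lmod1, Lmod2, Tmod4 and Tmod2 302, 31.1, 25.4, 19.8, 6.73 and 1.31 CPM. At the intercalated disc, where myocytes join, N-cadherin (Cdh2) and alpha-catenin (Ctnna1) had 1538 ± 14.0 and 1010.1 ± 5.28 CPM, and all 9 genes with a row passed 1 CPM.

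**Figure D2:**
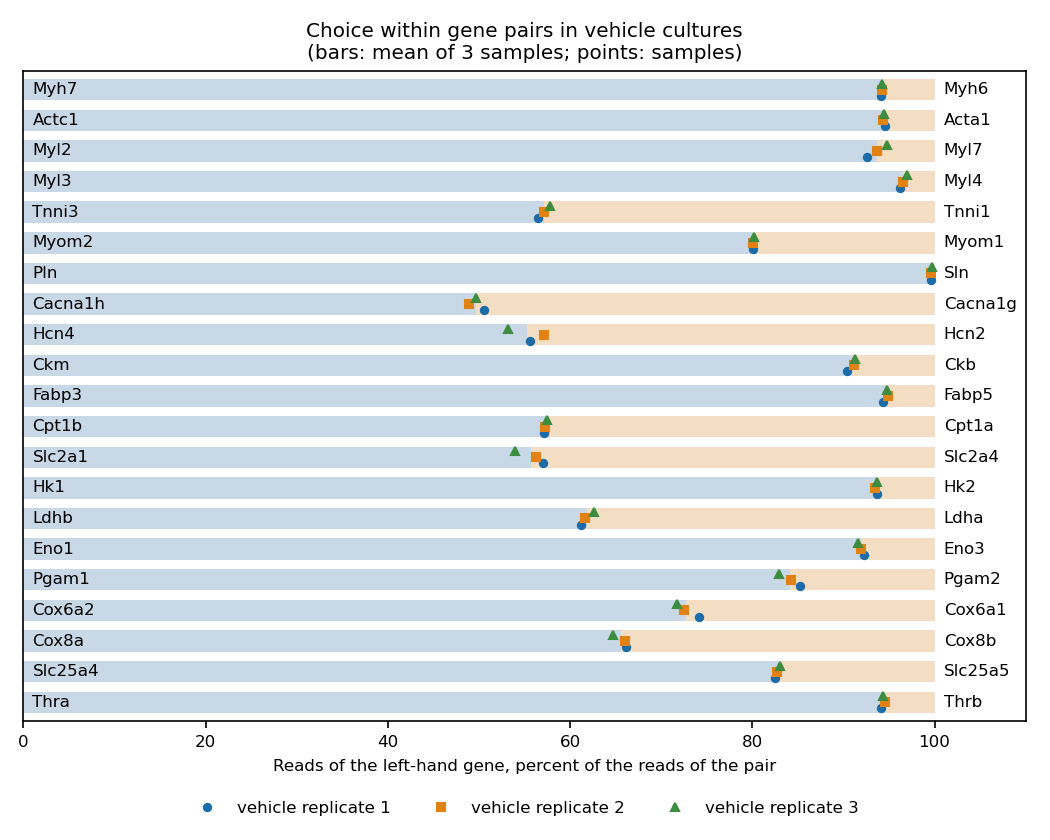
Share of reads (percent of the summed CPM of each pair) taken by the left-hand gene of gene pairs, as bars for the mean of the 3 vehicle samples and a point for each sample. Myh7, Actc1 and Pln take over 90% of their pairs, while Tnni3, Cpt1b, Slc2a1 and Cacna1h lie between 48.9% and 57.8% in all 3 samples.

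Among genes with a row, calcium handling was almost wholly of the cardiac set. All 19 genes of the list with a row passed 1 CPM in every sample, with 1.79% of all reads. Atp2a2 had 99.97% of the reads of its pair with the fast skeletal pump Atp2a1, which had 2.03 ± 0.121 CPM, and Atp2a3, the pump of non-muscle cells, had 0.851 ± 0.275 CPM. Its inhibitor Pln had 4079.9, 4036 and 4138 CPM and sarcolipin (Sln), the inhibitor of atrial and skeletal muscle, 15.7, 14.0 and 11.1 CPM. The 3 samples were close for Pln, and Sln was lowest in replicate 3. Cardiac calsequestrin Casq2, which stores calcium in the reticulum, made up 98.3% ± 0.0598 of its pair with skeletal Casq1. The cardiac release channel Ryr2 had 1714, 1929 and 1802 CPM. Ryr1 and Ryr3, of the same family, had no row, so Ryr2 could not be set against them. The exchanger Slc8a1, which removes calcium from the cell, had 1421, 1498 and 1434 CPM. Slc8a3 and Slc8a2 overlapped each other at 0.253 ± 0.157 and 0.237 ± 0.0484 CPM. Junctophilin Jph2, which holds the reticulum near the surface membrane, had 215 ± 8.37 CPM, against 17.3 ± 0.996 for skeletal Jph1 and 2.44 ± 0.226 and 0.116 ± 0.0966 for neural Jph3 and Jph4. The lowest members of the list were Sln and Fkbp1b, the channel-stabilizing calstabin, at 1.75 ± 0.0883 CPM.

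Calcium channel reads came from adult and fetal genes alike. The L-type calcium channel Cacna1c, the main entry of calcium in working myocytes, had 288, 315 and 285 CPM. The T-type channels Cacna1g and Cacna1h, which the fetal ventricle carries and the adult ventricle largely loses, had 163, 171 and 164 and 167, 164 and 162 CPM. These overlapped each other, with neither gene ahead in all 3 samples. Skeletal Cacna1s and neuroendocrine Cacna1d had 13.7 ± 0.718 and 1.48 ± 0.132 CPM. The pacemaker channels Hcn4 and Hcn2 had 27.2, 26.9 and 24.9 and 21.7, 20.2 and 22.0 CPM, with Hcn4 ahead in each sample, and Hcn3 had 0.289 ± 0.059 CPM.

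The neural sodium channel Scn1a had 19.8 ± 2.06 CPM, and Scn2a, Scn10a, Scn8a, Scn4a (the skeletal form) and Scn3a lay from 1.88 down to 0.306 CPM. Of the potassium channels that end the action potential, Kcnh2 had 156 ± 4.93 CPM, Kcnq1 126 ± 4.53, Kcnd3 49.1 ± 0.731, Kcna4 38.9 ± 2.17, and Kcnd2 3.34 ± 0.318 CPM. Atrial Kcna5 had 0.0971 ± 0.0507 CPM. Among inward rectifiers the ATP-sensitive Kcnj11, at 121 ± 1.36 CPM, was ahead of Kcnj2, the main carrier of the resting current, at 42.2 ± 2.2, and of Kcnj5, Kcnj12, Kcnj3 and vascular Kcnj8 at 30.5, 22.0, 14.2 and 1.28 CPM. The sodium pump beta subunits Atp1b1, Atp1b3 and Atp1b2 had 496, 148 and 49.7 CPM. Gja1, the ventricular connexin, made up 96.1% ± 0.16 of connexin reads, ahead of the atrial and conduction connexin Gja5 at 56.2 ± 2.94 CPM, Gjc1 at 35.6 ± 0.938, vascular Gja4 at 0.922 ± 0.185 and epithelial Gjb2 at 0.351 ± 0.108.

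Receptors for growth and stress hormones differed widely in reads in these unstimulated cells. The IGF1 receptor Igf1r had 71.4, 79.8 and 71.1 CPM, the insulin receptor Insr 154, 168 and 159 CPM, and Igf2r, which clears IGF2, 2290.1, 2435 and 2309 CPM. The alpha-1 adrenergic receptors, the targets of phenylephrine, were led by Adra1b at 32.1, 33.9 and 29.7 CPM, then Adra1a at 14.8, 14.8 and 14.0 CPM and Adra1d at 3.57, 3.47 and 3.79 CPM. Their ranges did not overlap. Adrb1, the main beta receptor of the heart, had 13.7 ± 0.91 CPM and Adrb3 0.267 ± 0.15. The endothelin receptor Ednra was the highest of the 17 genes of the receptor list, which does not hold Igf2r, at 225 ± 2.86 CPM against 2.31 ± 0.232 for Ednrb. The angiotensin receptor Agtr1a had 15.2 ± 0.475 CPM, Agtr2 0.707 ± 0.189 and Agtr1b, the lowest of the list, 0.0518 ± 0.0495. In all, 13 of the 17 passed 1 CPM in every sample.

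**Figure D3:**
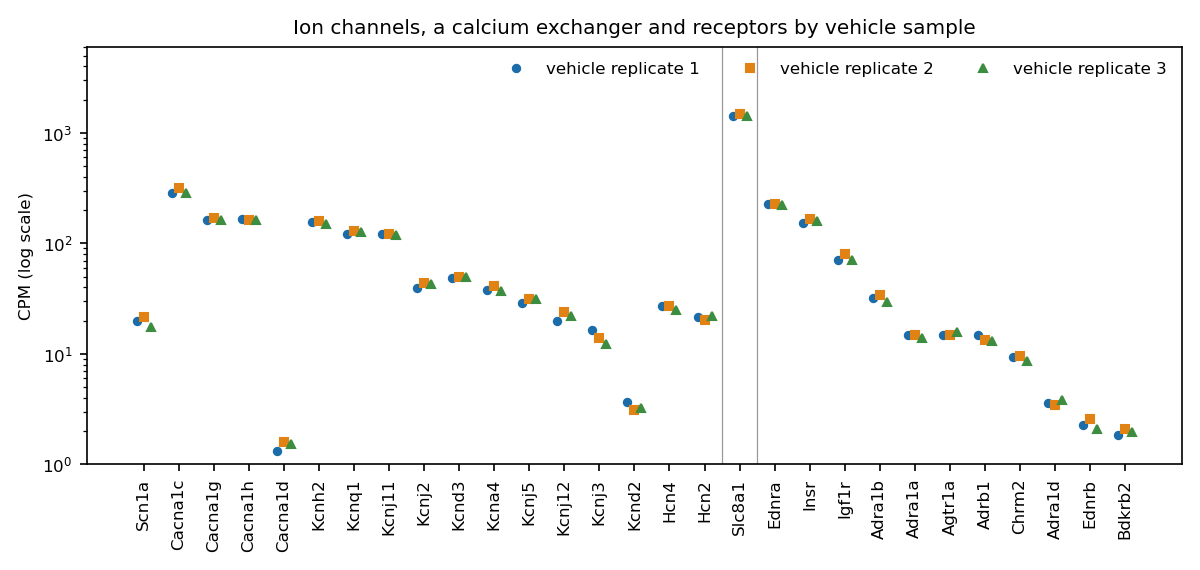
Level (CPM, log axis) of ion channel genes, the exchanger Slc8a1 and receptor genes, in 3 blocks from left to right, with a point for each of the 3 vehicle samples. Cacna1c lies above the overlapping pair Cacna1g and Cacna1h, and the alpha-1 receptors order as Adra1b, Adra1a and Adra1d.

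Energy genes took a large share of reads. All 30 oxidative phosphorylation genes with a row passed 1 CPM and held 2.33% of reads, all 15 TCA cycle genes 0.928%, and all 18 glycolysis genes 1.25%. Of 26 fatty acid genes, 23 passed 1 CPM, with 0.809% of reads. Besides both ATP synthase subunits named above, Cox4i1 came next among oxidative phosphorylation genes at 914 ± 29.0 CPM. Idh2 and Mdh1 were among the highest of the TCA list at 1405 ± 20.3 and 1068 ± 24.2 CPM, and Fabp3, Hadhb and Acsl1 led the fatty acid list at 801 ± 50.2, 788 ± 8.27 and 759.9 ± 16.6 CPM. The lowest fatty acid genes were Echs1 at 0.188 ± 0.0712 CPM, a mitochondrial hydratase in the middle of beta oxidation, and Ucp3 at 0.204 ± 0.0448. As with Myl6 and Rps19, so few assigned reads for Echs1 do not show that the gene is silent. All the genes in this paragraph are nuclear. For genes of the mitochondrial genome only symbols that begin with mt- were searched, and the table has 0 such rows.

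Where an enzyme or carrier has a fetal or general form and an adult muscle form, reads came from both. Cpt1b, the muscle form of the enzyme that admits fatty acids to mitochondria, had 514, 511 and 509 CPM and Cpt1a, the form of liver and fetal heart, 385, 381 and 376 CPM. Cpt1b was higher in each sample, at 57.3% ± 0.187 of the pair. The glucose transporter Slc2a1, the fetal form, had 108, 102 and 95.6 CPM and the insulin-responsive adult form Slc2a4 81.6, 79.5 and 81.6 CPM, with Slc2a1 higher in each sample. Slc2a3 had 0.542 ± 0.0678 CPM. Hexokinase was mostly Hk1, dominant before birth, at 93.6% ± 0.0815 of the pair with Hk2, the insulin-responsive form, and Hk3 had 3.23 ± 0.401 CPM. Ldhb, the heart form of lactate dehydrogenase, made up 61.8% ± 0.709 of the pair with Ldha. The brain form of glycogen phosphorylase, Pygb, had 773 ± 18.5 CPM beside the muscle form Pygm at 1028 ± 17.6, and the liver form Pygl had 11.1 ± 1.5.

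Other glycolytic steps differed in the form with the most reads. Eno1 made up 91.9% ± 0.361 of the pair with muscle Eno3, Pgam1 84.1% ± 1.13 of the pair with muscle Pgam2, and Aldoa 92.8% ± 0.304 of the pair with Aldoc. Muscle phosphofructokinase Pfkm led, at 527 ± 9.42 CPM, with Pfkp at 286 ± 0.479 and liver Pfkl at 79.9 ± 0.217. Pkm, Eno2, Pklr and Ldhc had 501, 0.0283, 0.0286 and 0.0816 CPM. For creatine kinase the muscle form was ahead, with Ckm at 90.9% ± 0.462 of the pair with fetal and brain Ckb. The mitochondrial creatine kinase of muscle, Ckmt2, had only 6.08, 6.34 and 6.76 CPM, and Ckmt1b 2.85 ± 0.254. Fatty acid binding protein was mostly the heart form Fabp3, at 94.7% ± 0.30 of the pair with Fabp5, and myoglobin (Mb), the oxygen store of muscle, had 786 ± 21.8 CPM against 22.3 ± 2.64 for Cygb and 0.403 ± 0.0851 for Ngb. In cytochrome c oxidase the muscle subunit Cox6a2 made up 72.8% ± 1.25 of the pair with Cox6a1, while the general Cox8a made up 65.6% ± 0.796 of the pair with muscle Cox8b. Cox7a2 and Cox7a2l had 211 ± 1.55 and 202 ± 5.9 CPM, Cox4i2 1.21 ± 0.105 and Cox8c 0.00687 ± 0.0119. Cox7a1, listed with Cox7a2, had no row. The heart and muscle form of the ADP/ATP carrier, Slc25a4, made up 82.8% ± 0.285 of its pair with Slc25a5.

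Among regulators of metabolism, Ppard and Ppara, receptors that turn on fatty acid genes, had 64.7 ± 3.66 and 31.9 ± 3.05 CPM and the adipocyte form Pparg 0.654 ± 0.214. The estrogen-related receptors Esrra, Esrrg and Esrrb, drivers of mitochondrial genes, had 148 ± 6.61, 79.7 ± 2.49 and 3.03 ± 0.249 CPM. The thyroid hormone receptor Thra made up 94.3% ± 0.193 of the pair with Thrb, and the deiodinases Dio3, which inactivates the hormone, and Dio2, which activates it, had 0.487 ± 0.0189 and 0.00687 ± 0.0119 CPM. Thyroid genes, and the ribosomal protein Rpl3 with its muscle paralog Rpl3l, were added after values of the data were seen. Rpl3 had 1221 ± 18.4 CPM and Rpl3l, which replaces it in adult heart and skeletal muscle, 0.186 ± 0.129 CPM.

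Cardiac transcription factors were nearly all detected. Of 22 cardiac factors with a row, 21 passed 1 CPM in every sample. Gata4 led at 419, 423 and 421 CPM, with the samples nearly equal, followed by Mef2a at 289.8 ± 6.42 and Srf, the factor of the CArG box, at 238 ± 6.1 CPM. Gata6, Irx4 (a ventricular factor), Nkx2-5 and Tbx20 had 180.2, 157, 148 and 138 CPM. The lowest were Tbx3, a factor of the conduction system, at 2.05 ± 0.171 CPM and Isl1, a progenitor factor, at 0.138 ± 0.0646. None of the 6 skeletal muscle determination factors passed 1 CPM. Myod1, Myog, Myf6 and Pax3 had means of 0.00726, 0.0573, 0.0563 and 0.00687 CPM, and Myf5 and Pax7 had no read. Of the sarcomere genes called skeletal above, Tnni1 and Acta1 had the most reads.

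Genes of the atrium differed widely in level, and 7 of the 9 listed passed 1 CPM in every sample. The natriuretic peptide Nppa, an atrial hormone that the fetal and stressed ventricle also makes, was the highest atrial gene, at 780.5, 782 and 694 CPM, and was lowest in replicate 3. Nppb had 156, 163 and 144 CPM and Nppc 2.19 ± 0.233. The atrial factor Nr2f2 had 14.5 ± 1.06 CPM, Tbx5 22.4 ± 1.34, and the right atrial growth factor Bmp10 0.446 ± 0.167. The ventricular genes Myl2, Myl3, Irx4, Hey2, Myh7 and Gja1 summed to 29237 ± 1025 CPM and the 9 atrial genes to 1032 ± 70.9 CPM, sums that are dominated by Myh7 and by Nppa.

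Fetal growth genes were present, and all 11 with a row passed 1 CPM. Igf2r led, followed by Grb10, a brake on insulin and IGF1 signalling, at 486 ± 2.93 CPM, and Peg3 at 154 ± 3.34. Igf2 itself, the fetal growth factor, had 27.0, 24.4 and 25.5 CPM and H19, the noncoding RNA beside it, 29.3, 28.8 and 26.9 CPM. The lowest were Igf2bp1 and Dlk1, at 14.0 ± 0.237 and 8.07 ± 0.949 CPM.

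Reads of cell cycle genes were plain in these cultures. All 23 proliferation genes passed 1 CPM. The markers of dividing cells Mki67 and Top2a had 112, 133 and 143 and 111, 127 and 145 CPM, and both were lowest in replicate 1 and highest in replicate 3. Ccnd3 and the cell cycle inhibitor Cdkn1a were the highest members, at 294 ± 3.17 and 262 ± 18.8 CPM, then Ccnd2 at 197 ± 9.18. The lowest were Aurka and Birc5 at 14.4 ± 1.22 and 9.67 ± 1.09 CPM. Bulk RNA does not say which cells these reads came from. The immediate early genes differed in level, with 12.2 ± 0.399 CPM for Fos, 26.4 ± 0.979 for Egr1 and 103 ± 3.16 for Jun, and 0.605 ± 0.144 for Egr3. The small heat shock gene Hspb1 led the list at 599 ± 9.88 CPM, ahead of the oxidative stress gene Hmox1 at 119.6 ± 9.92, and Hspa1a had no read.

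Of the markers of other heart cells, those of fibroblasts summed highest, then those of smooth muscle, and the rest were slight. Fewer cells of a type and less RNA per cell cannot be told apart in such samples. The 12 fibroblast markers summed to 6572, 6005 and 5429 CPM, against the 45985 ± 1341 CPM of the 5 myocyte markers, and 11 of them passed 1 CPM. Col1a1, the main fibrillar collagen, had 4084, 3655 and 3337 CPM, Col3a1 1647, 1563 and 1391 CPM and periostin (Postn), a mark of activated fibroblasts, 542, 506 and 443 CPM. All 3 were highest in replicate 1 and lowest in replicate 3. The proteoglycans Dcn and Lum had 106 ± 7.31 and 27.4 ± 1.89 CPM, Ddr2 and the receptor Pdgfra 58.4 ± 4.51 and 33.4 ± 2.18, and Dpt, Thy1, Tcf21 and Mfap5 17.7, 16.8, 13.2 and 6.32 CPM. Without Col1a1 the list summed to 2310 CPM. Matrix genes at large held 2.37% of all reads, led by Fn1, Col1a1 and Sparc, and 26 of 27 passed 1 CPM.

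Smooth muscle and pericyte markers summed to 2319, 2209.8 and 2188 CPM, with 10 of 11 at 1 CPM or more. Most of the sum was Acta2 and Tagln, at 859 ± 29.7 and 752 ± 24.8 CPM, which immature myocytes and activated fibroblasts express as well, and without them it came to 628 CPM. Myh11, the defining myosin of smooth muscle, had 155 ± 4.09 CPM, Abcc9 129 ± 2.13, Cspg4 96.0 ± 3.21, Pdgfrb 93.0 ± 8.73 and Smtn 92.5 ± 3.12. Abcc9 also forms the ATP-sensitive potassium channel of myocytes together with Kcnj11. Cnn1 and Lmod1 had 35.0 ± 1.36 and 25.4 ± 3.08 CPM, and the pericyte genes Kcnj8 and Rgs5 1.28 ± 0.199 and 0.57 ± 0.29.

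The endothelial list was uneven. It summed to 223, 213 and 197 CPM, with 9 of 11 members at 1 CPM or more, but Eng alone had 111 ± 9.37 and Kdr 47.6 ± 4.47 CPM. Eng is also made by fibroblasts. The defining endothelial genes Pecam1, Cdh5 and Vwf had 2.23 ± 0.118, 2.41 ± 0.489 and 0.52 ± 0.0215 CPM, Tek, Flt1 and Esam 15.3 ± 0.319, 11.7 ± 1.2 and 10.1 ± 0.945, Egfl7 and Tie1 5.54 ± 0.471 and 4.21 ± 0.291, and Emcn 0.727 ± 0.26. Endocardial and valve markers summed to 29.9 ± 2.55 CPM, most of it Npr3 at 21.1 ± 1.36 and Nfatc1 at 5.73 ± 1.18, with Hapln1, Cytl1, Plvap and Sox17 between 0.33 and 1.13 CPM.

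Blood-derived cells left few reads. Macrophage and leukocyte markers summed to 93.2, 80.7 and 92.9 CPM, and 9 of 12 passed 1 CPM. The lysozyme gene Lyz2 had 40.5 ± 3.26 CPM, the lysosomal Cd68 14.5 ± 1.44 and the growth factor receptor Csf1r 9.74 ± 0.312, then Mrc1 7.18 ± 0.233, Ptprc 5.02 ± 0.636, Itgam 4.33 ± 0.778, Cd14 4.1 ± 0.609, Cd74 1.52 ± 0.535 and Aif1 1.25 ± 0.268. The complement genes C1qa, C1qc and C1qb had 0.632 ± 0.0809, 0.171 ± 0.155 and 0.0137 ± 0.0238 CPM. Of 8 lymphocyte markers only Cd4, which rat macrophages also carry, passed 1 CPM, at 4.29 ± 0.429, and Cd8a, Cd79b and Cd3e had 0.169 ± 0.147, 0.0141 ± 0.0123 and 0.00726 ± 0.0126 CPM, while Cd3d, Ms4a1 and Nkg7 had no read. Of the mast cell list, Kit had 32.6 ± 2.27 CPM and Tpsab1 0.00726 ± 0.0126, and Cpa3, Cma1 and Fcer1a had no read, so without Kit that list summed to 0.0073 CPM. No erythroid marker passed 1 CPM, with Slc4a1 and Ahsp at 0.67 ± 0.189 and 0.471 ± 0.269, Alas2 at 0.0445 ± 0.037, and the globin genes Hbb, Hba2, Hba1 and Hbb-b1 at 0.0928 ± 0.0341, 0.0926 ± 0.0697, 0.040 ± 0.0326 and 0.0137 ± 0.0238 CPM.

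Epicardial and mesothelial markers summed to 68.1 ± 3.88 CPM. Tbx18 and the retinoic acid enzyme Aldh1a2 had 29.1 ± 1.62 and 22.0 ± 1.09 CPM, Upk1b 8.97 ± 0.746, Krt19 4.27 ± 0.206, the factor Wt1 2.42 ± 0.171 and Msln 1.36 ± 0.449. Schwann and neural markers summed to 38.0 ± 2.78 CPM, with Tubb3 at 9.92 ± 1.67, Prph at 6.27 ± 0.631, Mbp at 5.97 ± 0.991 and S100b at 4.45 ± 0.432. The Schwann cell factor Sox10 had 0.198 ± 0.0904 CPM, and Th, of sympathetic nerve, 0.0141 ± 0.0123. Of the adipocyte list Fabp4 and Cfd had 5.2 ± 0.748 and 2.14 ± 0.392 CPM, Lep 0.00862 ± 0.0149, and Adipoq, Plin1 and Ucp1 no read. Krt8 and Krt18, keratins of epithelium and mesothelium, had 10.6 ± 1.13 and 12.9 ± 1.17 CPM, and Lmna, the lamin of all differentiated cells, 257 ± 12.3.

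**Figure D4:**
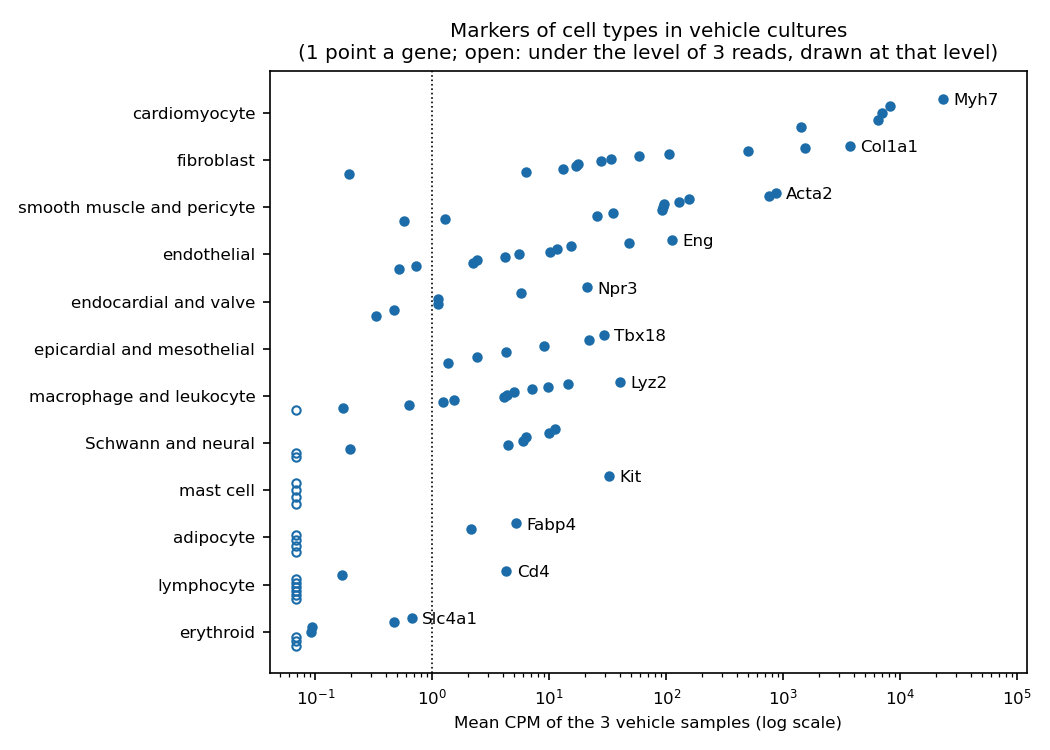
Mean level in the 3 vehicle samples (CPM, log axis) of each marker gene, by the cell type of its list, with the highest gene of most lists named and a dotted line at 1 CPM. Open points are genes under the level of 3 reads, drawn at that level. The 5 myocyte markers lie above 1000 CPM, fibroblast and smooth muscle markers spread over several decades, and no erythroid marker reaches the line.

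In a list of 17 iron-binding and secreted proteins, Fth1, clusterin (Clu) and Ftl1 had the most reads, at 2347 ± 58.2, 1507 ± 57.6 and 438 ± 11.1 CPM. Matrix genes, such as Fn1 and Col1a1 with more reads, were listed apart. All 17 genes of that list passed 1 CPM, the lowest being the iron hormone Hamp at 7.66 ± 1.32 and transferrin (Tf) at 6.59 ± 0.211 CPM.

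The 3 vehicle samples were close to each other. Over 9373 genes of at least 5 CPM the median coefficient of variation was 3.51%, and 555 genes exceeded 10%. Counting error calculated from each gene's mean count had a median of 2.27%. That value is calculated and the other is measured on 3 samples, so their gap is not an exact measure of added spread. The common biological coefficient of variation, the spread beyond counting error that edgeR estimates over genes at 1 CPM or more in every sample used, was 4.06%. It was 3.16% without replicate 3. Genes over 1.5-fold from the mean of the other samples numbered 6, 10 and 15 for replicates 1, 2 and 3. In replicate 3 they were 10 higher (0.107% of the genes of at least 5 CPM) and 5 lower (0.0533%), in replicate 1 they were 1 higher (0.0107%) and 5 lower (0.0533%), and in replicate 2 they were 3 higher (0.0320%) and 7 lower (0.0747%).

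The 10 genes higher in replicate 3 were Mx2, Usp18, Apol9a, Ifi44, RT1-S3, Irf7, Parp9, Ifi27, Ube2l6 and Lgals3bp, most of them known targets of interferon, the signal of antiviral defence. Mx2, an antiviral GTPase, had 2.81, 1.73 and 36.4 CPM. Usp18, which dampens the interferon receptor, had 2.35, 2.3 and 12.7 CPM, and Apol9a 5.49, 6.08 and 14.0 CPM. Irf7, a factor that amplifies the response, had 33.8, 30.4 and 58.7 CPM, Ifi27 91.5, 85.6 and 144 CPM, Ifi44 10.7, 9.39 and 23.5 CPM and the class I gene RT1-S3 13.2, 15.6 and 28.9 CPM. In each, replicate 3 lay above both others. All 5 genes lower in replicate 1 and 5 of the 7 lower in replicate 2 were among these 10. Each sample was set against the mean of the other 2, so a gene far up in replicate 3 also counts as lower elsewhere. That overlap is the same difference counted again and not a further result. In the interferon list 19 of 20 members of at least 1 CPM were highest in replicate 3, where 33.0% of all 10758 genes of that level were. The list summed to 464, 448 and 675 CPM. Among the 13 members of at least 5 CPM the median log2 ratio of replicate 3 to the mean of the others was 0.31, against -0.0039 over all genes of that level. Of the 13, 4 passed 1.5-fold: Mx2, Usp18, Irf7 and Ifi27, which are among the 10 above and not a separate result. The limits of 1 and 5 CPM are on the mean of all 3 samples, so a member can pass through replicate 3 alone. Mx2 and Usp18 passed 5 CPM in that way. The lower members Ifit1 and Oas1a, with 1.15, 1.35 and 7.77 and 0.196, 0.0776 and 2.56 CPM, were also highest in replicate 3. Gbp2, at 17.1, 16.4 and 16.7 CPM, was the exception. Macrophage markers summed to nearly the same value in replicates 1 and 3, with 6 of the 9 of at least 1 CPM highest in replicate 3, and the part of any cell type in this difference was not tested.

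The 250 bases upstream of 3 of these genes are shown because they carry the interferon-stimulated response element, a motif that interferon-activated factors are known to bind. The motif searched was GAAA, any 2 bases and GAAA again, on both strands, and capitals mark it, in the form it has on the printed strand. The windows are from RefSeq, build GRCr8, written 5′ to 3′ on the strand of the gene: chr6:128355062-128355311 on the plus strand for Ifi27, and chr1:205800024-205800273 for Irf7 and chr2:243303841-243304090 for Ifi44 on the minus strand.
Ifi27: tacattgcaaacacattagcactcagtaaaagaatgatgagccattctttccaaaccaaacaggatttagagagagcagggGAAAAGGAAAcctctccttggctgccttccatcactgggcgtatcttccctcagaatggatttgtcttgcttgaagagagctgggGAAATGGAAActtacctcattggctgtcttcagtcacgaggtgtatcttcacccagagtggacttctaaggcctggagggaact
Irf7: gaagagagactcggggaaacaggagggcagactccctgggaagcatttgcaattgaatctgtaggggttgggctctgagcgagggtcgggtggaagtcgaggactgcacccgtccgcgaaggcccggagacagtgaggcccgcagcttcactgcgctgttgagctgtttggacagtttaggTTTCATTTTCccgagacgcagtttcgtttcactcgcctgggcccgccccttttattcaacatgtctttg
Ifi44: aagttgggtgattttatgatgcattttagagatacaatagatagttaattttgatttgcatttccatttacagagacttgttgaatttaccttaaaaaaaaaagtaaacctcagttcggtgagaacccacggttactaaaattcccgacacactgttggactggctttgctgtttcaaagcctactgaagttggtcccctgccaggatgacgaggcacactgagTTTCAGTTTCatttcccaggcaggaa
The match of Irf7 lies 69 to 60 and that of Ifi44 26 to 17 bases before the start, both on the strand opposite to the gene, and Ifi27 has 2 matches on its own strand. Of the 10 genes, 8 had a window in the table and 6 of these held the motif, as did 9 of the 15 interferon list genes with a window. Of all 33469 windows, 3.41% held it. The genes were picked for their level in replicate 3, so these shares describe them and test nothing.

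The 5 genes lower in replicate 3 were Reg3b, Rn28s, LOC310926, Rn45s and Ppp2r2b. Reg3b, a secreted lectin that stressed myocytes release, had 28.0, 24.0 and 8.08 CPM. Rn45s, a ribosomal RNA precursor, had 93.6, 134 and 72.2 CPM and Rn28s 10.7, 16.0 and 8.14 CPM, both highest in replicate 2. The part of ribosomal RNA in other values was not tested.

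Smaller shifts were shared by many members of some lists. Of 11 fibroblast markers of at least 1 CPM, 9 were highest in replicate 1, as were 20 of 26 matrix genes, where 40.8% of all genes of that level were. In replicate 3, the highest values fell to 28 of 30 oxidative phosphorylation genes, 20 of 23 fatty acid genes, 10 of 15 TCA cycle genes and 13 of 23 proliferation genes, against 33.0% of all genes. The share of genes highest in replicate 2 was 26.3%. The sizes were small: the oxidative phosphorylation list summed to 22681, 23362 and 23928 CPM and the matrix list to 24971, 23715 and 22312 CPM in replicates 1, 2 and 3. CPM values are shares of 1 total, so a larger share for some genes leaves less for others.

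**Figure D5:**
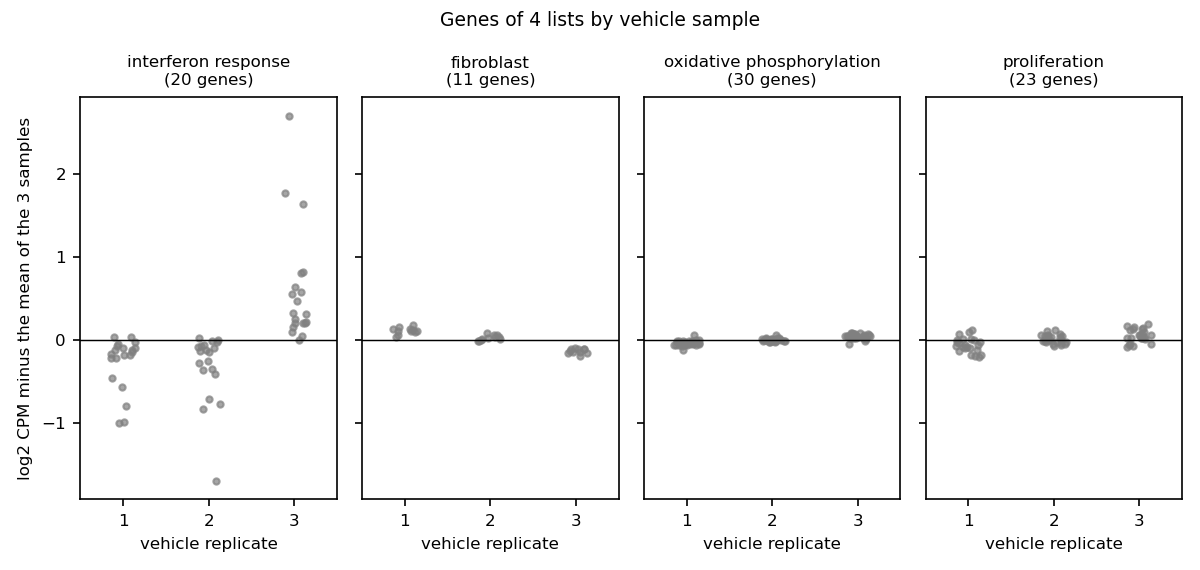
Level of each gene in each vehicle sample (log2 CPM minus the gene's mean over the 3 samples), for the members of at least 1 CPM of 4 lists, a point for each gene. Most of the 20 interferon genes lie above the line in replicate 3, by widely differing amounts, while the 11 fibroblast, 30 oxidative phosphorylation and 23 proliferation genes stay close to it in all 3 samples.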

How the data were processed

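Total RNA of NRVM cultures was sequenced; the 3 vehicle samples were used, with groups and replicate numbers from the sample titles. The values the authors deposited are raw, not normalized read counts for 17327 gene symbols. Per the submitters' processing notes STAR, HTSeq, DESeq and the rn5 build were used, with no versions or roles. The strand setting of the counting, not given in the sources used here, would decide whether reads of overlapping and antisense genes were told apart. All 9 sample columns were mapped by name. Of the rows, 14811 had a symbol in the RefSeq gene table (GRCr8), and 26 rows had dates in place of names (0.206% of reads) and are not named.

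Counts were divided by each sample's total to give CPM (Python 3.11.15, pandas 2.3.3). TMM factors and the common biological coefficient of variation came from edgeR 4.0.16 and size factors from DESeq2 1.42.0, in R 4.3.3, and no gene was tested. With 3 samples of 1 group an exact sign-flip test cannot go below p = 0.25. Errors show how far these samples lay apart, which may be technical spread. The plan was to compare genes by CPM per kb. No transcript lengths were used here, so shares of reads stand in their place and the 25 genes ranked per kb are not named. The genes named are the 25 with the most reads, isoform and marker lists, and the highest and lowest members of other lists, and some listed genes with no row are not named. Other genes named with them (among them middle members of lists, the ones checked for lost reads, thyroid genes and Rpl3l) were chosen after their values were seen. Members, lists and rules were chosen with earlier results of these data known. The fold calls and the coefficient of variation were tested on simulated data. Promoter windows were searched as stated. Alternatives were TMM and DESeq2 scaling, other levels and fold limits, and leaving out each sample or the leading markers. Some genes of the lists, and results that need them, are not reported here.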

Additional observations from a re-analysis of the deposited data

How the results depend on the processing

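No paired analysis was possible because only 1 group was described and no result came from a test. Of 147 alternative values over 33 results, 132 moved by less than the spread between samples (counts: by less than 1.5 times), 95 of the 147 being values with 1 sample left out. Leaving out 1 of 3 samples cannot move a mean by as much as the SD of the 3. For isoform shares and marker sums such values therefore could not count as moved, and they show nothing about stability. Genes detected ranged from 9272 at 5 CPM to 14384 with any read. The 15 others are among the values below. Without Col1a1 the fibroblast list summed to 2310 CPM, without Acta2 and Tagln the smooth muscle list to 628 CPM, and without Kit the mast cell list to 0.0073 CPM; these omissions were chosen after seeing the data. Genes over 1.5-fold apart, 6, 10 and 15 in replicates 1, 2 and 3, became 84, 112 and 106 among genes of at least 1 CPM, 1149, 1225 and 1191 with no filter, and 2, 2 and 6 at 2-fold. With 1 other sample left out they ranged from 5 (without replicate 3) to 14 (without replicate 2) for replicate 1, from 5 (without replicate 3) to 20 (without replicate 1) for replicate 2, and from 14 to 20 for replicate 3. Of these, the 5 for replicate 1 and the values for replicate 3 were not among the 15. The median log2 ratio of interferon genes in replicate 3 was 0.47 over members with a mean of at least 1 CPM, replicate 3 included. Without Mx2 it was 0.45, a value that was also not among the 15. Alternatives by gene length and without genes of the mitochondrial genome were not run. No lengths were used here, and the table has 0 rows with a symbol that begins with mt-, the only name searched for such genes. Near and below 1 CPM, where a value rests on few reads, counting error limits what differences between samples can show, and an order by reads need not be an order by molecules.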
